A study of Mus musculus with 2 samples.

Results

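Integrins, laminins, collagens, matrix metalloproteinases (Mmp), their tissue inhibitors (Timp) and 5 further matrix genes (Sparc, Postn, Fn1, Tnc and Dcn) were followed in sorted luminal cells from mouse mammary glands. They were picked by a rule on gene symbols that uses no measured value but was set with earlier results of these data known. They made up 108 of the 16906 genes in the table. Of these symbols, 104 belong to the named families. The other 4 (Col4a3bp, Itgb1bp1, Itgb1bp2 and Itgb3bp) share only the first letters of a family name and encode no integrin or collagen. The CKO library came from mice with both copies of the miR-200c/141 cluster floxed and with K8-CreERT2, a Cre recombinase that tamoxifen switches on and that the keratin 8 promoter drives. The Ctrl library came from mice with the same floxed cluster and no Cre. Both groups were C57BL/6 mice, 8 weeks old and given tamoxifen, and luminal cells were sorted by flow cytometry, about 20000 of them. The interval after tamoxifen stands as 4 weeks in one field of the labels and as 3 days in another. There was 1 library per group, so no difference below was checked against the spread between animals. Only CKO carried the Cre, so effects of the Cre and of the deletion cannot be told apart.

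Integrins are receptors made of an alpha and a beta chain that tie cells to the matrix. Laminins are trimers of an alpha, a beta and a gamma chain and form, with type IV collagen, the basement membrane on which mammary epithelium rests. Metalloproteinases cut matrix proteins, and Timp proteins block them. In the mammary gland, basal myoepithelial cells touch the basement membrane directly and make much of it, while luminal cells lie above them. The miR-200 family represses mesenchymal genes in epithelial cells, and fibronectin is among the matrix genes that such cells switch on when they become mesenchymal.

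The deleted microRNAs are shown first, because their seed decides which messages they can pair with. The mature sequences (RefSeq, GRCm38.p6) are written 5′ to 3′ with the seed, bases 2 to 8, in capitals. The first pair comes from the deleted cluster on chromosome 6, and the other three come from the cluster on chromosome 4, which was not floxed. miR-200c shares its seed with miR-200b and miR-429, and miR-141 shares its own with miR-200a.
miR-200c-3p: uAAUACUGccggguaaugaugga
miR-141-3p: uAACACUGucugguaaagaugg
miR-200b-3p: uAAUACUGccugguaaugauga
miR-429-3p: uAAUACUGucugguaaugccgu
miR-200a-3p: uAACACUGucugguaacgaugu

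Matches to these seeds were looked up in 1 UTR per gene, the longest 3′ UTR among its transcripts. Of 107 members with such a UTR, 29 (27.1%) held a match to either seed of the deleted cluster, against 28.0% of 16162 genes in the whole table. The sites below belong to fibronectin and to members on both sides of the comparison, and are shown because the same kind of match stood in genes that were higher and in genes that were lower in CKO. The capitals mark the 7 bases that pair with the seed, on the strand of the transcript (GENCODE M21, GRCm38). The fibronectin gene Fn1 has both kinds of site in exon 45 of 45, at chr1:71585674-71585680 for miR-200c and at chr1:71585963-71585969 for miR-141, on the minus strand. Col9a2 has its site at chr4:121055228-121055234 on the plus strand (exon 32 of 32). The site of Col8a1 is at chr16:57626569-57626575 on the minus strand (exon 4 of 4). Itga2 has a miR-200c site at chr13:114834305-114834311 and a miR-141 site at chr13:114833819-114833825 on the minus strand (exon 30 of 30).
Fn1, miR-200c site: atcaatttttccCAGTATTttt
Fn1, miR-141 site: ttcagtactgctCAGTGTTgtt
Col9a2, miR-200c site: tgtctcccatccCAGTATTtaa
Col8a1, miR-200c site: atcgctaatgaaCAGTATTcat
Itga2, miR-200c site: ctttgagcttagCAGTATTgta
Itga2, miR-141 site: ctttctagttagCAGTGTTatt

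Levels are FPKM, reads scaled by gene length and library total, as the authors deposited them. The totals that best matched the deposited p-values were 11400000 reads in CKO and 12500000 in Ctrl. Log2 ratios are CKO over Ctrl after adding 0.5 FPKM to each value, which understates the difference of low genes. The 95% intervals are exact (Clopper-Pearson), are those of the estimated read ratio without the added 0.5, and cover counting error only. Genes averaging 1 FPKM or more over both libraries were taken as measured. A gene was called higher or lower where the ratio reached 1.5-fold and the interval left out 1.

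Of the 108 members, 65 were measured and 43 stayed under 1 FPKM on average. Among the 65, 3 were higher in CKO (Col9a2, Col9a1 and Mmp2) and 3 were lower (Col8a1, Mmp3 and Col23a1). Over all 11667 measured genes, 2.29% were higher and 3.04% were lower by this rule. The members' shares of 4.62% in each direction rest on 3 genes each. The median log2 ratio of the measured members was -0.05, against -0.03 for all measured genes. Values above 0 were found for 29 members and below 0 for 35, and Timp3 was equal in both libraries. Over all 11667 measured genes, 5231 lay above 0 and 6393 below. Rescaling both libraries to the same sum over all genes shifts every ratio by -0.08. The split of the members then became 22 above and 43 below. Their counts past the rule became 1 higher and 6 lower, against 210 higher and 483 lower over all genes. With the median of well expressed genes set to 0, 5 members were higher and 2 lower, against 277 and 331 over all genes. The deposited table gave none of the 108 members an up or down call by the authors, and over all 16906 genes it gave 104 up and 108 down. A missing call does not mean equal read numbers. The counting interval lay wholly above a ratio of 1 for 14 measured members and wholly below for 22. Over all measured genes these shares were 16.5% and 23.6%.

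**Figure D1:**
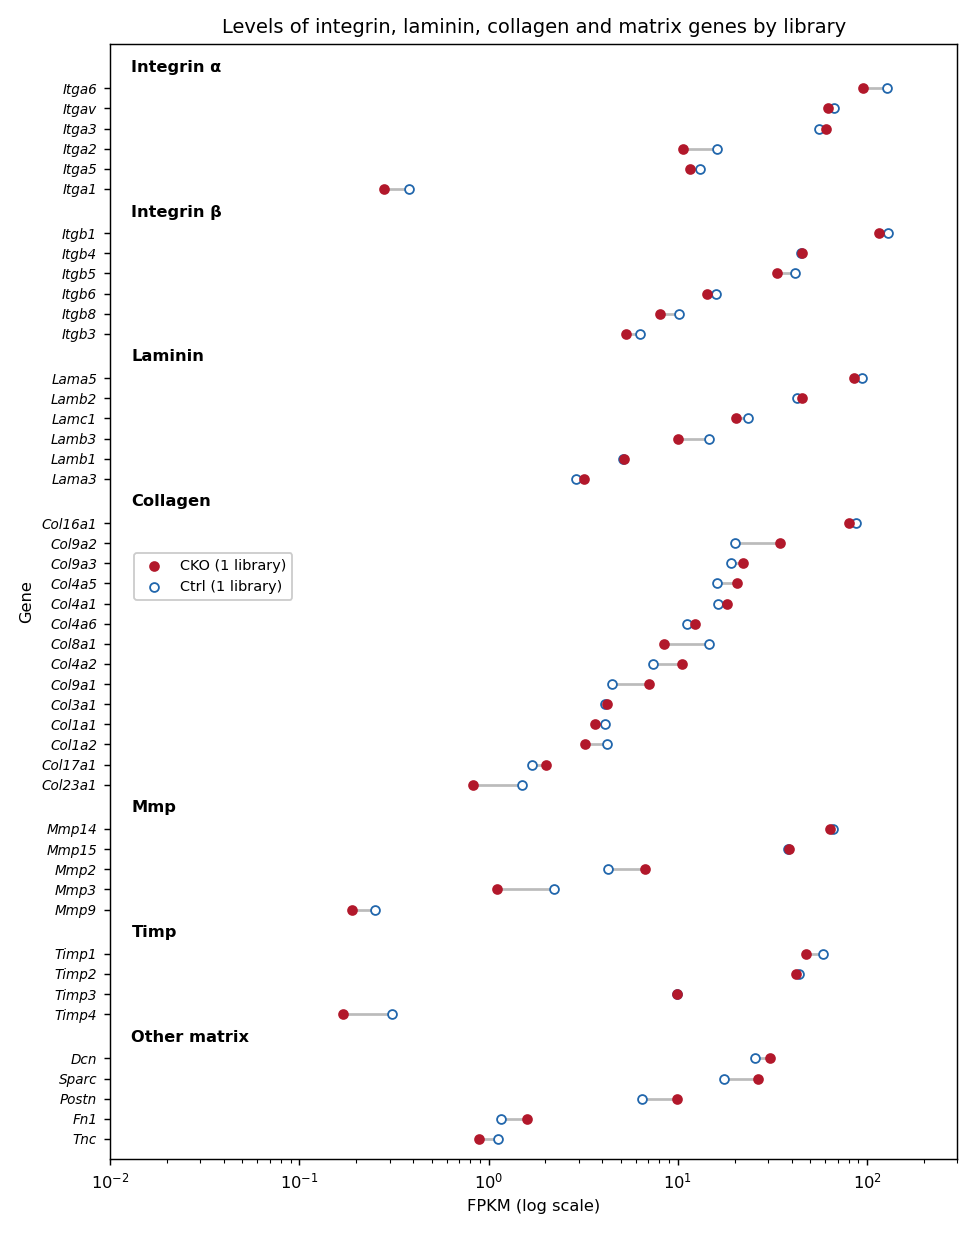
FPKM on a log scale for the described members of each family, with filled points for the single CKO library and open points for the single Ctrl library, joined by a grey line. Most pairs of points nearly coincide, and the widest gaps among genes over 5 FPKM belong to Col9a2 (34.70 in CKO and 19.97 in Ctrl) and Col8a1 (8.41 in CKO and 14.56 in Ctrl).

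Most integrins sat a little lower in the CKO library. Of 23 integrin genes 14 were measured, 0 passed the 1.5-fold rule in either direction, and the median log2 ratio was -0.18. The counting interval lay wholly below a ratio of 1 for 10 of the 14 and wholly above for 1, while over all measured genes these shares were 23.6% and 16.5%. An interval narrows with the number of reads behind it. The median stayed below 0 under both other scalings, at -0.25 with both libraries rescaled to the same sum and -0.17 with the median of well expressed genes set to 0.

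Receptors for laminin included the most abundant integrins. Itgb1, the beta chain shared by most integrins, stood at 115.08 FPKM in CKO and 129.04 in Ctrl, a log2 ratio of -0.16 (-0.22 to -0.11). Itga6, which pairs with Itgb1 or Itgb4 to bind laminin, stood at 95.10 FPKM in CKO and 127.84 in Ctrl, a log2 ratio of -0.42 (-0.47 to -0.38) from 6512 and 9562 estimated reads. Its partner Itgb4, the hemidesmosome integrin, did not differ beyond counting error, at 45.22 FPKM in CKO and 44.95 in Ctrl. The level of Itga6 was 2.10 times that of Itgb4 in CKO and 2.84 times in Ctrl. Itga3, another laminin-binding alpha chain, was at 60.84 FPKM in CKO and 55.59 in Ctrl, and its interval (0.06 to 0.20) was the only one among the measured integrins that lay wholly above 0. Itga6 and Itgb1 proteins are often used to sort mammary cells, and the markers of this sort are not given in the sources used here.

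Receptors for collagen and fibronectin were next examined. Itga2, which binds collagen with Itgb1, was the lowest integrin by ratio, at 10.60 FPKM in CKO and 16.10 in Ctrl. Its log2 ratio of -0.58 (-0.76 to -0.44) fell just short of the 1.5-fold rule, and passed it with 0.1 in place of 0.5 FPKM added. Itga1, the other widespread collagen-binding chain, was at 0.28 FPKM in CKO and 0.38 in Ctrl. The fibronectin-binding chains Itga5 and Itgav were at 11.63 and 61.80 FPKM in CKO, against 13.03 and 66.92 in Ctrl. Among the beta partners of Itgav, Itgb5 was at 33.43 FPKM in CKO and 41.50 in Ctrl, with a log2 ratio of -0.31 (-0.42 to -0.21). Itgb6, which with Itgav can activate latent TGF-beta, was at 14.23 FPKM in CKO and 15.87 in Ctrl. Itgb8, with the same known activity, was at 8.08 FPKM in CKO and 10.19 in Ctrl. Itgb3, a surface marker of mouse luminal progenitors, was at 5.35 FPKM in CKO and 6.29 in Ctrl, a log2 ratio of -0.21 (-0.44 to -0.03).

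The remaining measured integrins were Itga2b, Itga7 and Itga8, between 2.03 and 7.98 FPKM in either library. Of these the interval of Itga8 alone excluded a ratio of 1, at 2.31 FPKM in CKO and 3.16 in Ctrl. Beta chains of leukocytes were scarce, with Itgb2 at 0.65 FPKM in CKO and 0.73 in Ctrl and Itgb7 at 0.49 in CKO and 0.73 in Ctrl. Leukocyte alpha chains, which the symbol rule leaves out, were as low: Itgal stood at 0.60 FPKM in CKO and 0.61 in Ctrl, Itgam at 0.35 in CKO and 0.52 in Ctrl, and Itgax at 0.35 in CKO and 0.30 in Ctrl.

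Laminin levels differed widely between chains. Of 11 laminin genes 8 were measured, 0 passed the rule and the median log2 ratio was -0.11, which remained below 0 under both other scalings. Lama5, the alpha chain of most adult epithelial basement membranes, stood at 85.19 FPKM in CKO and 93.50 in Ctrl. Its usual partners were Lamc1, at 20.35 FPKM in CKO and 23.57 in Ctrl, and Lamb1, at 5.22 in CKO and 5.15 in Ctrl. Lamb2, the other beta chain that joins Lama5, was at 45.19 FPKM in CKO and 42.80 in Ctrl, 8.66 and 8.31 times the level of Lamb1 in the same library. The log2 ratios of these 4 genes ran from -0.21 for Lamc1 to 0.08 for Lamb2.

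Lama3 and Lamb3 encode an alpha and a beta chain of the laminin of hemidesmosomes. Lamb3 was at 9.99 FPKM in CKO and 14.54 in Ctrl, a log2 ratio of -0.52 (-0.71 to -0.37). The alpha chain Lama3 was at 3.21 FPKM in CKO and 2.90 in Ctrl, with an interval of -0.12 to 0.41 on the log2 scale, which includes 0. Of the other hemidesmosome parts, the transmembrane collagen Col17a1 was at 2.02 FPKM in CKO and 1.70 in Ctrl, with an interval of -0.13 to 0.62. The plakin genes Dst and Plec, which link this structure to keratin filaments, belong to a list of adhesion partners. Dst was at 33.23 FPKM in CKO and 50.26 in Ctrl, a log2 ratio of -0.59 (-0.64 to -0.55), and was the only gene of that list past the rule. Plec, named after its values were seen, was at 118.7 FPKM in CKO and 153.66 in Ctrl, a log2 ratio of -0.37. Lama4, an endothelial laminin chain, was at 2.41 FPKM in CKO and 2.59 in Ctrl, while Lama1, Lama2 and Lamc3 stayed under 1 FPKM.

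**Figure D2:**
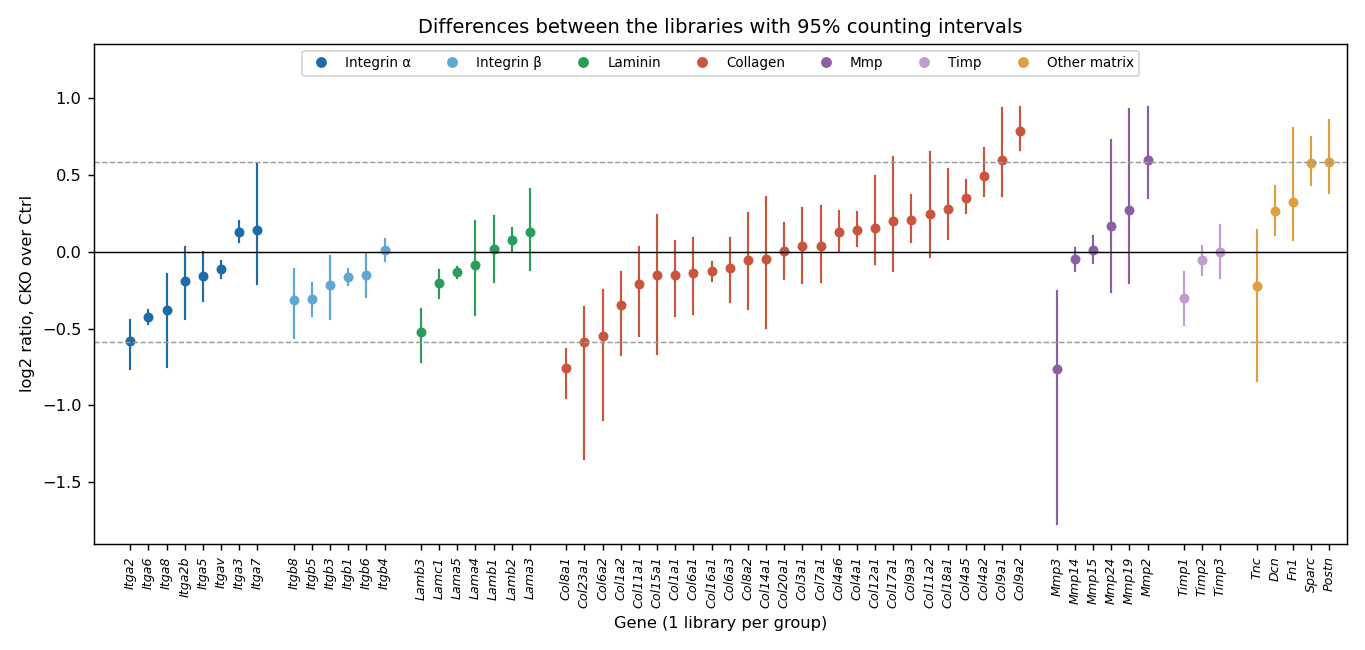
Log2 ratio of CKO over Ctrl (points) with the 95% counting interval of the read ratio (vertical lines) for the measured members of the families that are reported here, grouped by family, with dashed lines at 1.5-fold. Points of Col9a2, Col9a1 and Mmp2 lie above the upper dashed line, and those of Col8a1, Mmp3 and Col23a1 lie below the lower one.

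Collagens spread more widely than integrins or laminins and in both directions. Of 43 collagen genes 26 were measured, 2 were higher and 2 were lower, and the median log2 ratio was 0.02. That median turned to -0.05 with both libraries rescaled to the same sum, and to 0.18 with a minimum mean of 5 FPKM. The ratios ran from -0.76 for Col8a1 to 0.78 for Col9a2. The most abundant collagen was Col16a1, a collagen that associates with fibrils and with basement membranes, at 79.91 FPKM in CKO and 87.37 in Ctrl. Its log2 ratio was -0.13 (-0.19 to -0.07).

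Type IV collagen forms the network of the basement membrane. Of its 6 chain genes 4 were measured, 0 passed the 1.5-fold rule, and all 4 log2 ratios lay above 0, also with both libraries rescaled to the same sum. Col4a2 was at 10.53 FPKM in CKO and 7.36 in Ctrl, a log2 ratio of 0.49 (0.36 to 0.67). Col4a1 was at 18.08 FPKM in CKO and 16.33 in Ctrl, a log2 ratio of 0.14 (0.04 to 0.26). The level of Col4a1 was 1.72 times that of Col4a2 in CKO and 2.22 times in Ctrl. A trimer takes more alpha-1 than alpha-2 chains, but these are RNA levels and chain numbers in protein were not measured. Col4a5 was at 20.59 FPKM in CKO and 16.06 in Ctrl, a log2 ratio of 0.35 (0.25 to 0.47), and its partner Col4a6 was at 12.30 in CKO and 11.23 in Ctrl, with an interval that included a ratio of 1. Col4a3 and Col4a4, chains known from kidney and lung, were at 0.19 FPKM or less in both libraries. Col18a1, another basement membrane collagen, was at 5.90 FPKM in CKO and 4.77 in Ctrl, a log2 ratio of 0.28 (0.08 to 0.54). Col15a1 and Col7a1, found at the same boundary, were between 1.27 and 2.51 FPKM, and their intervals included a ratio of 1.

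Col4a1 and Col4a2 lie head to head on chromosome 8 and are known to share a promoter. The annotated starts used here (RefSeq, GRCm38.p6) are 11312826 for Col4a1, on the minus strand, and 11312805 for Col4a2, on the plus strand. They are 21 bases apart, and the transcripts overlap between them. The Col4a1 gene record spans 11198423 to 11312889, so the bases before the Col4a2 start lie within the Col4a1 gene. Any relation of this sequence to the unequal ratios was not tested. The window of Col4a2 is printed here. It is chr8:11312555-11312854 on the plus strand, from 250 bases before to 50 after its start. Its last 78 bases overlap the window of Col4a1. Capitals mark the CCAAT box (CCAAT) and the GC box (GGGCGG) on either strand.
Col4a2: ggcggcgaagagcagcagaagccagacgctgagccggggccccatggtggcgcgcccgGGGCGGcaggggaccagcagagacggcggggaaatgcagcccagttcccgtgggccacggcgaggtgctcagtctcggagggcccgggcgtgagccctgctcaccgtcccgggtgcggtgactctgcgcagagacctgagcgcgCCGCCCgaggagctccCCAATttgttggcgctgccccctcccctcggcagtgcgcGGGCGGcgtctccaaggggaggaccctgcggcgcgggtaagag
This window held 1 CCAAT box and 3 GC boxes, and whether any of them acts on either gene was not tested. Over 32851 promoter windows of the same length, 37.4% held the CCAAT letters and 35.7% the GC box letters.

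Type IX collagen, best known from cartilage, held the pair of highest ratios among measured collagens. Col9a2 stood at 34.70 FPKM in CKO and 19.97 in Ctrl, 1.72-fold higher with the 0.5 FPKM added, with a log2 ratio of 0.78 (0.66 to 0.94) from 1090 and 685 estimated reads. Col9a1 was at 7.03 FPKM in CKO and 4.49 in Ctrl, a log2 ratio of 0.59 (0.36 to 0.93) that passed the rule narrowly. It did not pass with 1 FPKM added (0.55) or with both libraries rescaled to the same sum (0.52). The third chain gene, Col9a3, was at 22.18 FPKM in CKO and 19.13 in Ctrl, a log2 ratio of 0.21 (0.06 to 0.37). The level of Col9a2 was 1.56 times that of Col9a3 in CKO and 1.04 times in Ctrl. In the authors' deposited table the false discovery rate of Col9a2 was 9.2e-29, from a test of the reads of the 2 libraries that compares these libraries and not the genotypes.

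The collagens on the other side were of unlike kinds. Col8a1, a short collagen that forms open networks, stood at 8.41 FPKM in CKO and 14.56 in Ctrl, a log2 ratio of -0.76 (-0.95 to -0.63). Its partner chain Col8a2 was at 3.33 FPKM in CKO and 3.47 in Ctrl, with an interval that included a ratio of 1. Col23a1, a transmembrane collagen, was at 0.83 FPKM in CKO and 1.5 in Ctrl, a log2 ratio of -0.59 (-1.35 to -0.36) from 54 and 106 estimated reads. It passed the rule narrowly, and did not pass with 1 FPKM added (-0.45) or with the median of well expressed genes set to 0 (-0.58). Col6a2, a chain of the microfibrillar type VI collagen, was at 1.75 FPKM in CKO and 2.79 in Ctrl, a log2 ratio of -0.55 (-1.10 to -0.25). The other chains of that collagen, Col6a1 and Col6a3, were at 5.53 and 3.27 FPKM in CKO and 6.15 and 3.55 in Ctrl, and neither interval excluded a ratio of 1.

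Fibrillar collagens, the bulk product of fibroblasts, were low in both libraries. Of 11 genes 5 were measured, with a median log2 ratio of -0.15. Col1a1 was at 3.67 FPKM in CKO and 4.14 in Ctrl, and Col3a1 at 4.24 in CKO and 4.13 in Ctrl, and both intervals included a ratio of 1. Col1a2 was at 3.22 FPKM in CKO and 4.24 in Ctrl, and its interval (-0.67 to -0.13) did not. The levels of 12 markers of fibroblasts summed to 4.79 FPKM in CKO and 6.97 in Ctrl, none of them had a mean of 1 FPKM, and none was listed at 0.

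Most metalloproteinase genes lay under the minimum, and the most abundant were membrane-anchored types. Of 18 Mmp genes 6 were measured, 1 was higher and 1 was lower, and the median log2 ratio was 0.09. Mmp14, the membrane enzyme that activates Mmp2, was at 64.02 FPKM in CKO and 66.26 in Ctrl, and Mmp15, of the same membrane type, at 38.78 in CKO and 38.42 in Ctrl. Both intervals included a ratio of 1. Mmp2, a gelatinase, was at 6.71 FPKM in CKO and 4.28 in Ctrl, a log2 ratio of 0.59 (0.35 to 0.94) that passed the rule narrowly. It fell short of the rule with 1 FPKM added (0.55) and with both libraries rescaled to the same sum (0.52). Mmp3, a stromelysin with broad substrates, was at 1.11 FPKM in CKO and 2.23 in Ctrl, a log2 ratio of -0.76 (-1.77 to -0.25) from only 23 and 50 estimated reads. Mmp9, the other gelatinase, was at 0.19 FPKM in CKO and 0.25 in Ctrl. Mmp3 belongs to a row of 7 described Mmp genes on chromosome 9 (7272514 to 7699585, GRCm38), and the other members of that row reached at most 0.25 FPKM in CKO and 0.18 in Ctrl.

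Of the inhibitors, Timp1 and Timp2 were the most abundant. Timp1 stood at 47.33 FPKM in CKO and 58.40 in Ctrl, a log2 ratio of -0.30 (-0.48 to -0.13). Timp2, which also takes part in the activation of Mmp2, was at 41.85 FPKM in CKO and 43.50 in Ctrl. Timp3, which stays bound to the matrix, was at 9.96 FPKM in each library, and Timp4 at 0.17 in CKO and 0.31 in Ctrl. The level of Mmp14 was 1.53 times that of Timp2 in CKO and 1.52 times in Ctrl. Of the 4 Timp genes 3 were measured, and 0 passed the rule.

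Of the 5 further matrix genes 4 had log2 ratios above 0, with a median of 0.32, also above 0 under both other scalings. Over all 11667 measured genes, 5231 lay above 0. These 5 are a small set listed by name, chosen with earlier results of these data known. A wider list of matrix proteins, described below, had a median of 0.04 over 26 measured genes. Sparc, a glycoprotein that binds collagen, was at 26.49 FPKM in CKO and 17.57 in Ctrl, a log2 ratio of 0.58 (0.44 to 0.75). Postn, which encodes the matricellular protein periostin, was at 9.92 FPKM in CKO and 6.47 in Ctrl, a log2 ratio of 0.58 (0.38 to 0.85). Both fell just short of the 1.5-fold rule and passed it with 0.1 FPKM added in place of 0.5. Dcn, the small proteoglycan decorin, was at 30.74 FPKM in CKO and 25.57 in Ctrl, a log2 ratio of 0.26 (0.11 to 0.43). Fn1 was at 1.59 FPKM in CKO and 1.17 in Ctrl, a log2 ratio of 0.32 (0.08 to 0.80) from 145 and 117 estimated reads. Tnc, the glycoprotein tenascin C, was at 0.89 FPKM in CKO and 1.12 in Ctrl, and its interval included a ratio of 1.

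Most, but not all, measured markers in a list for basal myoepithelial cells were higher in CKO. Of the measured basal markers, 11 had log2 ratios above 0 and 3 below. Of 14 measured basal markers 9 were higher in CKO and 1 (Trp63) was lower, and the 15 listed markers summed to 319 FPKM in CKO and 180.2 in Ctrl, with none listed at 0. The basal keratin genes Krt14, Krt17 and Krt5 were at 90.79, 50.59 and 14.78 FPKM in CKO and at 44.49, 30.66 and 9.27 in Ctrl. The contractile genes Acta2, Tagln, Myl9, Myh11 and Cnn1 were at 66.72, 46.90, 11.72, 9.71 and 8.98 FPKM in CKO and at 33.68, 26.92, 7.20, 4.91 and 5.15 in Ctrl. Trp63, a basal transcription factor gene, went the other way, at 1.05 FPKM in CKO and 2.96 in Ctrl, a log2 ratio of -1.16 (-1.99 to -1.06). The part of basal cells in the values of the members was not tested. This holds for those higher in CKO, such as Sparc, Postn, Mmp2 and the type IV collagens, and for those lower, such as Itga6 and Lamb3. In bulk RNA, fewer cells of a type and less RNA per cell cannot be told apart. Luminal markers were far more abundant, with 17 of 17 measured and a sum of 21855 FPKM in CKO and 17249 in Ctrl. Of these 1 was higher (Krt18, at 10398.4 FPKM in CKO and 6606.79 in Ctrl) and 1 was lower (Prom1, at 28.63 in CKO and 48.96 in Ctrl). Krt8 and Cldn4 were at 4476.23 and 2053.87 FPKM in CKO and at 3871.08 and 2179.76 in Ctrl. Endothelial markers, 9 measured of 10, had 0 past the rule and a median of 0.05, and summed to 45.3 FPKM in CKO and 41.8 in Ctrl, led by Eng, Vwf and Cldn5. Pericyte markers, 3 measured of 7, had 0 past the rule and a median of -0.31, and summed to 51.9 FPKM in CKO and 65.7 in Ctrl. Most of that sum was Notch3, at 37.10 FPKM in CKO and 46.00 in Ctrl, followed by Mcam and Rgs5. The 4 others, Pdgfrb, Kcnj8, Abcc9 and Cspg4, were at 0.56 FPKM or less in both libraries, so the sum says little about pericytes. Immune markers, 4 measured of 13, had 0 past the rule and summed to 22.4 FPKM in CKO and 18.45 in Ctrl, led by Cd68, Lyz2 and Laptm5, with Cd3e at the floor of 0.01 FPKM in CKO. Adipocyte markers (Cfd, Cidec and Plin1) had 0 measured of 3 in the table and summed to 0.25 FPKM in CKO and 0.67 in Ctrl.

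**Figure D3:**
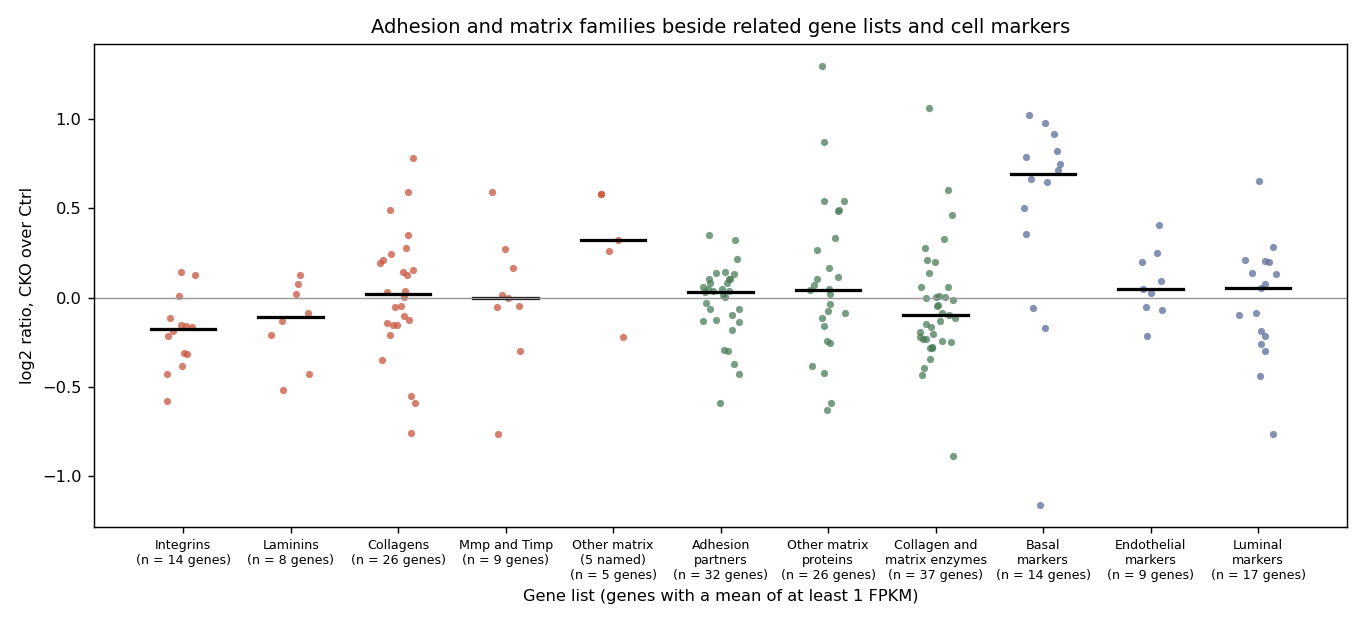
Log2 ratio of CKO over Ctrl for each measured gene (points) of the described families, of 3 lists of related genes and of 3 marker lists, with the median of each list as a black bar. The integrin median (-0.18) lies below 0, and the basal markers spread widest, from -1.16 to 1.02.

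Genes that act with these families had medians near 0. Of 32 measured adhesion partners of integrins, 0 were higher and 1 (Dst) was lower, with a median log2 ratio of 0.03. The most abundant were the tetraspanin genes Cd9, at 803.46 FPKM in CKO and 748.91 in Ctrl, and Cd82, at 225.8 in CKO and 194.48 in Ctrl, and the actin crosslinker gene Actn4, at 344.22 in CKO and 340.19 in Ctrl. Of 26 measured genes of other matrix proteins, 2 were higher and 2 were lower, with a median of 0.04. Bgn, a proteoglycan close to decorin, was at 7.17 FPKM in CKO and 3.69 in Ctrl, a log2 ratio of 0.87 (0.62 to 1.30). Eln, which encodes elastin and is named after its values were seen, was at 5.74 FPKM in CKO and 2.04 in Ctrl, a log2 ratio of 1.30 (1.15 to 1.85). The lower pair, Smoc1 and Thbs2, also named after their values were seen, had log2 ratios of -0.63 and -0.59. The most abundant of this list were Cyr61, Sdc4 and Thbs1, at 667.1, 517.47 and 282.59 FPKM in CKO and at 528.41, 461.98 and 290.14 in Ctrl.

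Of 37 measured genes of collagen synthesis and matrix processing, 2 were higher and 1 was lower, with a median of -0.09. Plat, which encodes tissue plasminogen activator, was at 22.02 FPKM in CKO and 10.28 in Ctrl, a log2 ratio of 1.06 (0.91 to 1.30). Ctsl, a lysosomal protease that can also act outside cells, was at 435.34 FPKM in CKO and 286.12 in Ctrl, a log2 ratio of 0.60 (0.56 to 0.65). The lower gene was P4ha1, a collagen prolyl hydroxylase subunit named after its values were seen, at 2.22 FPKM in CKO and 4.52 in Ctrl. The most abundant others, Bsg, Ctsb and Tgm2, had log2 ratios of -0.01, -0.09 and 0.00.

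The medians of members with and without a seed match were compared without a test. Among 65 measured members, 15 held a match and had a median log2 ratio of -0.11, while the 50 without had a median of -0.05. Over all measured genes with a UTR the corresponding medians were -0.08 for 3421 genes with a match and -0.01 for 8015 without. The sites printed above belonged to Col9a2, the highest member, to Col8a1 and Itga2, among the lowest, and to Fn1, whose difference was 0.32 on the log2 scale. Those of Col9a2, Col8a1 and Itga2 were picked with these ratios known. A match is a run of letters and was not tested as a functional site.

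The 43 members under the minimum reached at most 0.92 FPKM in CKO and 0.97 in Ctrl. They included 17 collagens, 12 Mmp genes, 9 integrins and 3 laminins. Of the 43, 4 were listed at the floor of 0.01 FPKM in CKO and 5 in Ctrl, 2 of them in both. At this depth most differences among them were not detectable. The intervals of Col5a2, Col6a5 and Lamc3 lay wholly above a ratio of 1, and those of Col13a1, Col2a1 and Mmp28 wholly below. Lamc3 was at 0.20 FPKM in CKO and 0.03 in Ctrl, from 14 and 2 estimated reads.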

How the data were processed

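Bulk RNA-seq of sorted luminal cells gave 1 library per group, grouped by their titles. The submitters' processing notes name HISAT, Bowtie2, RSEM and mm10, without versions. The deposited table's expression columns hold FPKM: times gene length in kilobases they sum to 999909 in CKO and 999609 in Ctrl. The authors' log2 fold change equals the log2 ratio of these columns, and the deposited p-value and false discovery rate come from the authors' Poisson test of one library against the other. Gene length is another deposited column.

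The share of CKO in the reads, 0.478, was read from the deposited p-values; for 44 of 44 genes at the floor in 1 library and with p under 0.001 these returned whole reads within 0.01. A fit over 8578 genes gave the read totals, and its p-values differed from the deposited ones by 0.081 (log10, median absolute value). Each estimated read number is the FPKM scaled by gene length and total, so intervals are approximate and, as PCR copies are not independent molecules, cover counting error only. No test across samples was possible and no p-value was computed. The calculations (Python 3.11.15, SciPy 1.17.1) were tested on simulated data.

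Members and lists were chosen with earlier results of these data known. Members were described if among the 30 most abundant of those with a mean of at least 5 FPKM, if past the rule, or if in a fixed list of major chains, receptors and enzymes; Col4a3bp, which this names, was at 16.53 FPKM in CKO and 19.44 in Ctrl. From related lists, the 3 most abundant genes and those past the rule at a mean of at least 5 FPKM were named. A member that this rule names is not reported here, and the counts include it. All 108 members matched the RefSeq gene table by identifier. Alternatives were the added FPKM, the minimum, 2 other scalings, the read ratio implied by the p-values, a 2-fold rule and the authors' calls.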

Additional observations from a re-analysis of the deposited data

How the results depend on the processing

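No paired analysis was possible because each group has 1 library. The counts of members past the rule were small and moved with most settings. Members higher in CKO (3) became 5 with 0.1 FPKM added, 5 with the median of well expressed genes set to 0, 5 by the read ratio implied by the deposited p-values, 1 with 1 FPKM added and 1 with both libraries rescaled to the same sum. Members lower in CKO (3) became 5 with 0.1 FPKM added, 5 by the implied read ratio, 6 with the rescaling and 1 with a minimum mean of 5 FPKM. A 2-fold rule with 5 FPKM in the higher library left 0 members in each direction, as did the authors' deposited calls. The all-gene counts of 267 higher and 355 lower became 309 and 467 with 0.1 FPKM added, and 224 and 227 with 1 FPKM. They became 277 and 331 with the median of well expressed genes set to 0, and 210 and 483 with the rescaling. By the implied read ratio they were 302 and 451. The 2-fold rule gave 58 and 31, the authors' calls 104 and 108, and the minimum of 5 FPKM 143 and 117. With that minimum the median of the 5 further matrix genes became 0.58, because Fn1 and Tnc dropped out and only Sparc, Postn and Dcn remained. The cause of the changed counts was not tested, beyond fewer genes passing stricter limits. No called member changed direction under any of these settings. Col9a2, Col8a1 and Mmp3 passed the rule with 0.1, 0.5 and 1 FPKM added. With 1 library per group, no difference could be set against the spread between animals.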

Other observations

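Decorin and Col16a1 stood above each of the 12 fibroblast markers. Dcn was at 30.74 FPKM in CKO and 25.57 in Ctrl and Col16a1 at 79.91 in CKO and 87.37 in Ctrl, while the most abundant of the 12 fibroblast markers, Lum, Dpt and Thy1, were at 0.38, 0.86 and 0.65 FPKM in CKO and at 1.16, 0.59 and 0.78 in Ctrl.

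For 3 of the 65 measured members the read ratio implied by the deposited p-value lay over 0.1 (log2) away from the FPKM ratio. For Lama3 the implied log2 ratio was 0.02, for Tnc it was -0.45 and for Itgb3bp, which is no integrin, it was 0.53.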
